A study of Homo sapiens with 12 samples.

Results

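The siRNA response that Hep3B and Huh7 cells share was measured over all 12 arrays of the study, as the mean of the siRNA-minus-control effects of the 2 lines, with each line set against its own controls. The 4 groups were Hep3B cells given an siRNA, Hep3B cells given a negative control RNA, Huh7 cells given an siRNA and Huh7 cells given a negative control RNA, with 3 arrays each, all collected 48 h after transfection. A gene was counted as changed by a similar size in both lines when it passed an adjusted p of 0.05 in the mean effect and in each line with the same sign, and when its effects in the 2 lines lay at most 0.5 apart on the log2 scale, a factor of 1.41. Of 22411 named genes, 1553 met this rule. Genes that passed a threshold of 0.05 after Benjamini-Hochberg adjustment over all 66158 rows of a limma fit are said below to be called, to rise or to fall, and all levels and effects are on the log2 scale unless a fold is given.

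Hep3B and Huh7 are established lines from human liver cancer. Hep3B lacks the p53 gene and carries integrated hepatitis B virus, whereas Huh7 makes a mutant p53 and is free of the virus. An siRNA is a short double-stranded RNA whose guide strand directs an Argonaute protein to matching transcripts, and guide strands can also act on transcripts that match them only in part. The series title names 1 long non-coding RNA as the subject of the study. The labels give neither the sequence of the siRNA nor how many were used, so effects of losing its target and other effects of the transfected RNA cannot be told apart. No row carried the name of the targeted RNA, whose level is therefore not analysed.

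As deposited, the arrays had medians between 3.82 and 3.94. After quantile normalization, replicates within a group correlated at r between 0.991 and 0.994 over all tested rows. One label of Huh7 control array 1, its description, names Hep3B, while its other labels name Huh7. On the same normalized values that array correlated at r from 0.985 to 0.993 with the other Huh7 arrays and from 0.954 to 0.960 with the Hep3B arrays. Without it 1230 genes met the similar-size rule. Of 11 measured hepatocyte lineage markers, all 11 lay above background in at least 1 group. Their mean level lay between 11.03 and 11.18 on Hep3B siRNA arrays against 11.26 to 11.33 on Hep3B control arrays, and between 10.42 and 10.73 on Huh7 siRNA arrays against 11.16 to 11.24 on Huh7 control arrays. None of 9 endothelial markers, 2 of 9 fibroblast and stellate markers, 2 of 8 blood markers and 4 of 6 cholangiocyte markers lay above background in any group. In whole cell extracts, fewer cells of a type and less RNA per cell cannot be told apart.

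The shared response went in both directions at once, with GJA1, TPM4 and zinc finger genes among those that rose and KNG1, SLC12A2 and NCAPG among those that fell. In the mean effect 9542 rows were called (14.4%), and 5150 named genes were called, which is 23.0% of them, 2644 higher (11.8%) and 2506 lower (11.2%). Taken line by line, 3796 named genes were called in Hep3B (16.9%) and 3080 in Huh7 (13.7%). In both lines with the same sign 1760 were called (7.85%), and 41 were called with opposite signs (0.183%). The 1553 genes of similar size (6.93%) comprised 753 that rose (3.36%) and 800 that fell (3.57%), and they made up 88.2% of the 1760. The stricter demand that the whole 95% interval of the difference lie within 0.5 either way left 997 genes (4.45%). The balance of direction moved when arrays were centred on their medians instead of being quantile normalized: 65.2% of called named genes were higher, against 51.3% here, and 66.0% of the similar-size genes, against 48.5% here.

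Most of these shared effects were modest. The smaller of the 2 effects had a median of 0.49 among the genes that rose, a 1.41-fold change, and of 0.47 in size among those that fell, a 1.38-fold change. It reached at least 1 in size for 45 genes that rose and 37 that fell. The effects of the 2 lines differed by a median of 0.14, against a median half-width of 0.27 for the 95% interval of that difference, and the Huh7 effect was the larger one in 715 of the 1553 genes. All siRNA arrays lay on one side of all control arrays in both lines for 1551 of the 1553, against 3884 of all 22411 named genes (17.3%). By RefSeq type 1465 of them code for proteins, 38 are pseudogenes and 19 are long non-coding RNAs. The rule used these same arrays, so the counts describe the set and give it no further support.

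**Figure D1:**
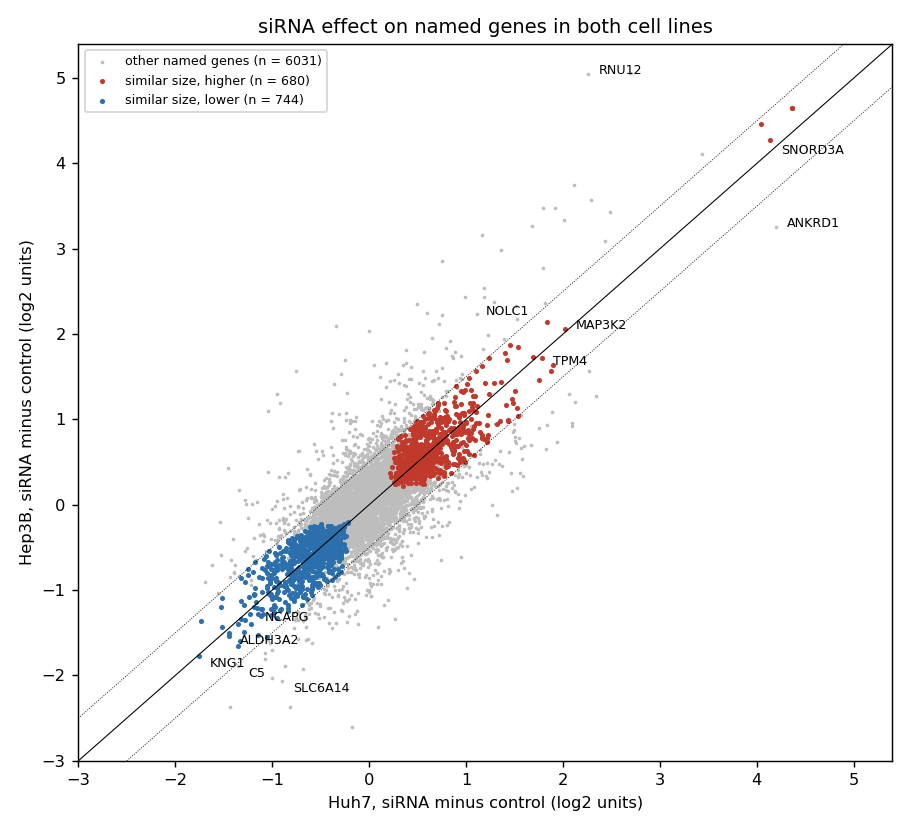
Each point is 1 of 7455 named genes whose brighter group lay above background in each line, with the siRNA-minus-control effect in Huh7 on the x axis and in Hep3B on the y axis (log2 units). The 680 red (9.12%) and 744 blue points (9.98%) are the similar-size genes that rose and fell, the solid line marks equal effects and the dotted lines a difference of 0.5, and ANKRD1, RNU12, C5 and SLC6A14 lie outside them.

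Just inside the limit on the difference stood GLA, MAP2K6 and EBPL, with effects of -0.54, -0.67 and -0.75 in Hep3B and -1.03, -1.17 and -1.25 in Huh7. Just outside it stood ZNF594, at 1.12 in Hep3B and 0.61 in Huh7, the long non-coding RNA LINC00261, at -0.84 and -1.35, and APOC3, at -1.15 and -0.63. Across the 7455 named genes above background in each line, the effects of the 2 lines correlated at r = 0.743 and 75.9% had the same sign, which describes genes that share arrays and normalization.

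Small RNA rows apart, the 15 genes with the largest measured shared rises included MAP3K2, TPM4, GJA1 and SLC30A1, and 3 of the 15 (CYP1A1, EGOT and FLJ42627) rank by control values within background. Leading genes in each direction were drawn only from similar-size genes whose siRNA and control arrays did not overlap in either line. Their lack of overlap was thus fixed by the choice and gives no further support. MAP3K2, a kinase at the top of MAP kinase cascades, stood at 10.18, 10.28 and 10.31 on Hep3B siRNA arrays against 8.18, 8.13 and 8.26 on Hep3B control arrays. In Huh7 it stood at 11.17, 11.25 and 10.51 with siRNA against 9.03, 8.98 and 8.86 with control RNA. The groups did not overlap in either line, and the mean effect was 2.04 ± 0.11 (SE, adjusted p = 9.4e-07), a 4.12-fold rise. NOLC1, a nucleolar phosphoprotein that accompanies small nucleolar RNPs, stood at 9.14, 9.50 and 9.43 on Hep3B siRNA arrays against 7.23, 7.24 and 7.17 on controls, and at 9.005, 8.94 and 8.99 on Huh7 siRNA arrays against 7.16, 7.16 and 7.11 on controls. The control levels of the 2 lines were close, the siRNA arrays stood higher in Hep3B, the siRNA and control arrays did not overlap in either line, and the mean effect was 1.99 ± 0.06 (adjusted p = 5.15e-08).

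TPM4, a tropomyosin that coats actin filaments, stood at 10.47, 10.45 and 10.43 with siRNA against 8.70, 8.82 and 8.68 with control RNA in Hep3B, and at 11.28, 11.40 and 11.60 against 9.60, 9.74 and 9.59 in Huh7. Its effects of 1.72 and 1.78 differed by 0.07 with a 95% interval of -0.21 to 0.34. AJUBA, a LIM protein of cell junctions and the Hippo pathway, stood at 8.86, 9.07 and 9.17 against 7.45, 7.23 and 7.25 in Hep3B and at 11.20, 11.35 and 11.21 against 9.45, 9.55 and 9.69 in Huh7, siRNA first in each pair. No siRNA array of these 2 genes came down to a control array of its own line, although for AJUBA the Huh7 controls stood above the Hep3B siRNA arrays. PHACTR2, which binds actin and protein phosphatase, rose by 1.57 in Hep3B and 1.88 in Huh7, an unequal pair whose interval of the difference, 0.06 to 0.57, excluded 0 without the difference being called (adjusted p = 0.271).

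GJA1 encodes connexin 43, the most widespread gap junction channel protein. Its siRNA arrays read 6.99, 7.26 and 7.40 in Hep3B, against 5.47, 5.44 and 5.66 on control arrays that lay at the background limit of 5.50. In Huh7, where the gene was far brighter, they read 13.25, 13.07 and 13.33 against 11.63, 11.84 and 11.91. The effects were 1.69 and 1.42, while the control levels of the 2 lines stood much further apart than that. SLC30A1, the zinc exporter of the plasma membrane, read 8.66, 8.81 and 8.65 with siRNA against 7.44, 7.27 and 7.09 with control RNA in Hep3B and 9.71, 9.85 and 10.10 against 8.71, 8.48 and 8.40 in Huh7 (mean effect 1.40 ± 0.09, adjusted p = 2.25e-06). MTF1, the zinc-sensing factor that drives that exporter, rose by 0.70 ± 0.11.

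The other genes in this leading group were IRAK2, a kinase of interleukin 1 and Toll-like receptor signalling, at 1.46 in Hep3B and 1.75 in Huh7, and ITGA2, a collagen-binding integrin subunit, at 1.24 and 1.47. KDM2A, a histone demethylase that binds CpG islands, rose by 1.33 and 1.51, DENND5A, an exchange factor of Rab proteins, by 1.42 and 1.28, and the zinc finger gene ZNF134 by 1.78 and 1.41. CYP1A1, the monooxygenase induced through the aryl hydrocarbon receptor, had control levels within background in both lines, so its rise is a lower bound, at least 3.11-fold in Hep3B and at least 2.41-fold in Huh7. The long non-coding RNAs EGOT and FLJ42627 were dim too, with bounds of at least 1.03-fold and 2.44-fold for EGOT and of at least 1.54-fold and 1.07-fold for FLJ42627, Hep3B first.

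**Figure D2:**
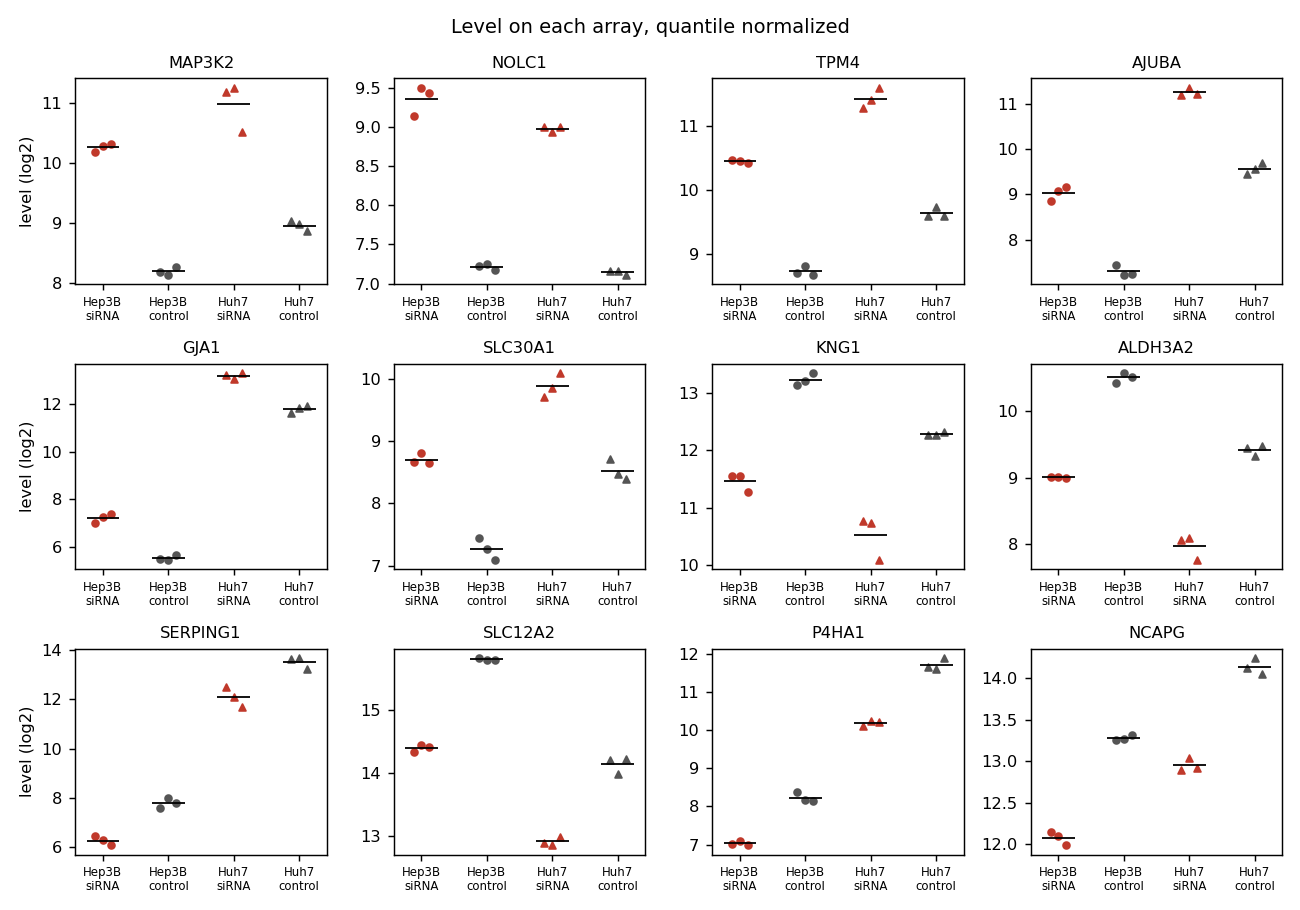
Each panel shows the quantile normalized level (log2, y axis, scaled per panel) of 1 gene on every array, with circles for Hep3B, triangles for Huh7, red for siRNA, grey for control RNA and a bar at each group mean. In all 12 panels the siRNA arrays of a line lie wholly above its control arrays (MAP3K2 to SLC30A1) or wholly below them (KNG1 to NCAPG), which was a condition for choosing these genes.

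The 15 genes with the largest shared falls included KNG1, SERPING1, ALDH3A2 and SLC12A2. KNG1, the kininogen of the contact system, stood at 11.55, 11.55 and 11.28 on Hep3B siRNA arrays against 13.14, 13.21 and 13.35 on controls, and at 10.77, 10.73 and 10.09 on Huh7 siRNA arrays against 12.26, 12.27 and 12.32 on controls. Its effects of -1.77 and -1.75 differed by 0.02, with an interval of -0.48 to 0.52, and the arrays did not overlap in either line. SERPING1, the plasma inhibitor of classical complement and contact activation, read 6.42, 6.28 and 6.07 with siRNA against 7.59, 7.98 and 7.80 with control RNA in Hep3B and 12.49, 12.09 and 11.68 against 13.65, 13.68 and 13.26 in Huh7. Its level differed between the lines by far more than the effects of -1.54 and -1.44. CPB2, a plasma carboxypeptidase that slows clot breakdown, fell by 1.32 on average (mean effect -1.32 ± 0.11, adjusted p = 1.38e-05).

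ALDH3A2, which oxidizes fatty aldehydes, read 9.02, 9.01 and 8.99 with siRNA against 10.43, 10.58 and 10.53 with control RNA in Hep3B, and 8.06, 8.09 and 7.76 against 9.44, 9.32 and 9.48 in Huh7. SLC12A2, the sodium, potassium and chloride cotransporter, read 14.33, 14.44 and 14.41 against 15.81, 15.79 and 15.79 in Hep3B and 12.90, 12.86 and 12.996 against 14.21, 13.98 and 14.23 in Huh7. Both genes were brighter in Hep3B than in Huh7 under the same RNA, and both fell by a like amount, ALDH3A2 by a mean of 1.48 ± 0.07 (effect -1.48) and SLC12A2 by 1.31 ± 0.05 (effect -1.31). P4HA1, a collagen prolyl hydroxylase subunit, read 7.03, 7.09 and 6.98 with siRNA against 8.37, 8.17 and 8.14 with control RNA in Hep3B and 10.10, 10.23 and 10.22 against 11.65, 11.59 and 11.89 in Huh7. Its fall was larger in Huh7, -1.53 against -1.20 in Hep3B, with an interval of -0.63 to -0.04 for the difference, which was not called (adjusted p = 0.32).

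NCAPG, a subunit of the condensin complex that compacts chromosomes for mitosis, stood at 12.16, 12.10 and 11.99 with siRNA against 13.25, 13.27 and 13.31 with control RNA in Hep3B, and at 12.90, 13.04 and 12.92 against 14.12, 14.24 and 14.05 in Huh7. Its effects of -1.20 and -1.19 differed by 0.01, with an interval of -0.22 to 0.24. FAM111B, a nuclear protease, was at -1.36 in Hep3B and -1.73 in Huh7, CAPRIN2, an RNA-binding protein, at -1.40 and -1.36, NAALAD2, a carboxypeptidase of the cell surface, at -1.43 and -1.52, and IL17RB, an interleukin receptor, at -1.60 and -1.33. CXCL10, a chemokine induced by interferon, fell by at least 2.42-fold in Hep3B and, with a Huh7 siRNA level within background, by at least 1.93-fold there. FABP5P7 and FABP5P1 (mean effects -1.50 and -1.39) and ID2B (-1.23) are pseudogenes of FABP5 and ID2, and which copy gave the signal is uncertain.

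**Figure D3:**
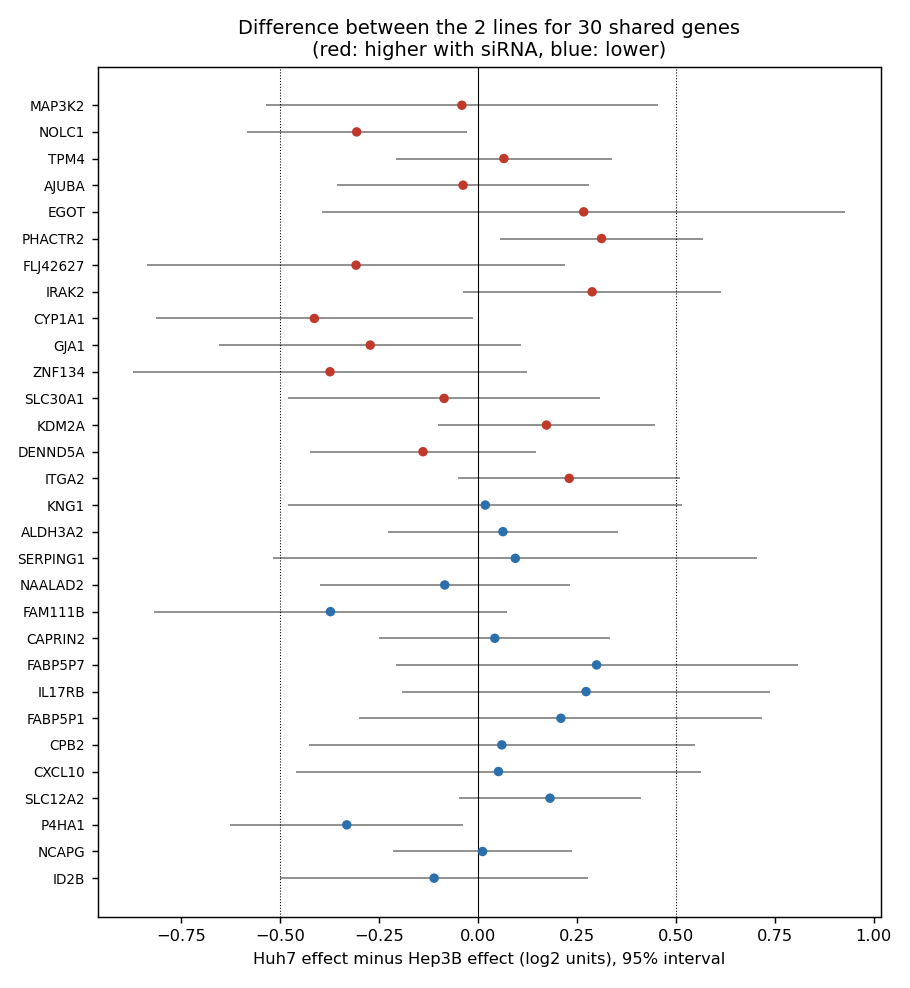
For the 30 genes, small RNA rows apart, with the largest shared effects, 15 in each direction, the point is the Huh7 effect minus the Hep3B effect (log2 units, x axis) and the line its 95% interval, in red for genes that rose and blue for genes that fell. The dotted lines mark 0.5 either way, which contain the whole interval of 11 genes, TPM4 and NCAPG among them, while CYP1A1, EGOT, FLJ42627 and CXCL10 have a group within background that limits the effect drawn.

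Of those 30 genes, 11 had the whole interval within the limit of 0.5. The interval excluded 0 for 4 of them, NOLC1, PHACTR2, P4HA1 and CYP1A1, although both effects of CYP1A1 are limited by background and its interval does not measure their difference. The difference was called for 0 of the 30 (lowest adjusted p = 0.271, limma), against 3.03% of all named genes. The rule had already held the measured difference of these 30 to at most 0.5, so nothing is read from that count. A difference that was not called does not show equal effects, and for genes such as MAP3K2 (-0.54 to 0.45) and SERPING1 (-0.52 to 0.71) effects that differ by more than the limit lie within the interval.

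Promoters of the genes that fell together in both lines are shown because several hold letters known from cell cycle promoters. In that class of genes, background knowledge places the box CCAAT, which the factor NF-Y binds, upstream of an element named the cell cycle homology region, with the letters TTTGAA. The 4 promoters below belong to NCAPG, to KPNA2, which encodes the nuclear import receptor importin alpha, to UBE2T, a ubiquitin-conjugating enzyme of DNA crosslink repair, and to CKAP5, a microtubule polymerase. The fifth belongs to GJA1, which rose, and holds the AP-1 site TGACTCA. The promoter of NCAPG holds the cell cycle homology region without the NF-Y box, and those of KPNA2, UBE2T and CKAP5 hold both. In UBE2T the single TTTGAA stands before both CCAAT boxes, the reverse of that order, while KPNA2 and CKAP5 have a match to the homology region on each side of theirs. The promoters were chosen after the values were seen. Each runs from 250 bases before to 50 bases after the first listed start of the gene, from RefSeq on GRCh38.p14, 5′ to 3′ on the strand of the gene, and capitals mark every match to those 3 elements on either strand.
The positions are chr4:17810729-17811028 (plus strand) for NCAPG, chr17:68035485-68035784 (plus) for KPNA2, chr1:202341887-202342186 (minus) for UBE2T, chr11:46846231-46846530 (minus) for CKAP5 and chr6:121435396-121435695 (plus) for GJA1.
NCAPG: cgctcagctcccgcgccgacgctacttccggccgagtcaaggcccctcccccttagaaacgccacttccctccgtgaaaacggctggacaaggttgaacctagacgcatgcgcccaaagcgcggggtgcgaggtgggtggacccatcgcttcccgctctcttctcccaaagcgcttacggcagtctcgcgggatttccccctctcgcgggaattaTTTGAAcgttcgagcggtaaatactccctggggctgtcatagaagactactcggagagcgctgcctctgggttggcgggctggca
KPNA2: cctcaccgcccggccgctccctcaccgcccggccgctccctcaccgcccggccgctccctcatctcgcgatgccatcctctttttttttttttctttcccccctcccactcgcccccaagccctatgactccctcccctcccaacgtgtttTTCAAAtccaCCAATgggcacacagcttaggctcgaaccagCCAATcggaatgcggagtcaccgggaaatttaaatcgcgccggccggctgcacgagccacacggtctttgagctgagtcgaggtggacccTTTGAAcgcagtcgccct
UBE2T: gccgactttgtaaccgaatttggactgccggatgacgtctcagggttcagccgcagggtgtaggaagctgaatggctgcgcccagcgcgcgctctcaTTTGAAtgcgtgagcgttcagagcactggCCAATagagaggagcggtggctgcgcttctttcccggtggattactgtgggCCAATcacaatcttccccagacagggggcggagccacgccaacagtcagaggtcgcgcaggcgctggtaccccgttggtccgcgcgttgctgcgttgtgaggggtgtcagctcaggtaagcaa
CKAP5: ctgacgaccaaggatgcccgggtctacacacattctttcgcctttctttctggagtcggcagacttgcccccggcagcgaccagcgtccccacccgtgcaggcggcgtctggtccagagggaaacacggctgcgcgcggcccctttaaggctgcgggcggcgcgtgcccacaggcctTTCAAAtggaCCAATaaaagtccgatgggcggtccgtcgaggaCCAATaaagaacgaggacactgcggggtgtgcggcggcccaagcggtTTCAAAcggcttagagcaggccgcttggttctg
GJA1: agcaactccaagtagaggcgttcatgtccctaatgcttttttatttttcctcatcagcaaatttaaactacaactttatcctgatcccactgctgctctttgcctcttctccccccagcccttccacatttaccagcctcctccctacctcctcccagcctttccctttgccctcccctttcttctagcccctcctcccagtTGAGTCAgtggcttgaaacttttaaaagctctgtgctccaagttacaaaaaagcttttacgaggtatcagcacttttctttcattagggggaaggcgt
KPNA2 read 15.49, 15.49 and 15.27 with siRNA against 16.26, 16.40 and 16.30 with control RNA in Hep3B and 15.49, 15.59 and 15.47 against 16.74, 16.80 and 16.85 in Huh7. CKAP5 fell by 0.78 on average (effect -0.78 ± 0.05, adjusted p = 1.42e-06), with -0.74 in Hep3B and -0.81 in Huh7. UBE2T was at 7.57, 7.53 and 7.42 against 8.57, 8.21 and 8.39 in Hep3B and at 7.05, 7.13 and 6.81 against 7.63, 7.77 and 8.02 in Huh7. All siRNA arrays of KPNA2 and UBE2T lay below the control arrays of their line.

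Counted over protein-coding similar-size genes above background with a listed promoter, TTTGAA stood on either strand in 97 of 599 promoters of genes that fell (16.2%) and in 50 of 534 of genes that rose (9.36%). It stood in 600 of 5683 promoters of all protein-coding genes above background (10.6%) and in 15.4% of all 27305 promoters of the same length. CCAAT stood in 43.2% of the promoters of genes that fell and 35.2% of those that rose, against 38.4% above background and 35.7% of all. Both letters together were in 10.0% of promoters of genes that fell and 4.31% of those that rose, against 4.87% above background and 6.08% of all. The AP-1 site TGACTCA was in 1.503% and 3.75%, against 2.29% and 4.92%, and the E-box CACGTG in 9.35% and 13.7%, against 10.9% and 7.43%, in the same order. The TEAD core CATTCC was in 10.4% of promoters of genes that fell and 11.8% of those that rose, and the GC box GGGCGG in 74.6% and 75.8%. GC content was 64.7% in promoters of genes that fell and 66.6% in those that rose. It was 64.7% for all protein-coding genes above background and 57.2% over all promoters. These are counts of letters in a fixed window, with no test, and the promoters of 83.2% of the genes that fell and 84.9% of those that rose were in the table.

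To read the response by process, 63 lists of genes outside the usual liver, cell cycle and stress lists were counted in the mean effect, over 1410 measured genes. Among all named genes 11.8% were called higher and 11.2% lower, and among the 7455 named genes above background in each line 26.0% were higher and 26.1% lower, so that a list of well expressed genes with about such a share called each way is near the background. After median centring 2991 named genes were called higher and 1595 lower, against 2644 and 2506 here. The median mean effect of those above background moved from -0.02 to 0.06. List counts given after median centring therefore carry this shift of all genes. The median mean effect was -0.01 over all named genes. It lay within 0.2 of 0 for 57 of the 63 lists, above that for 4 and below for 2. The lists share some genes and were not tested as sets.

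**Figure D4:**
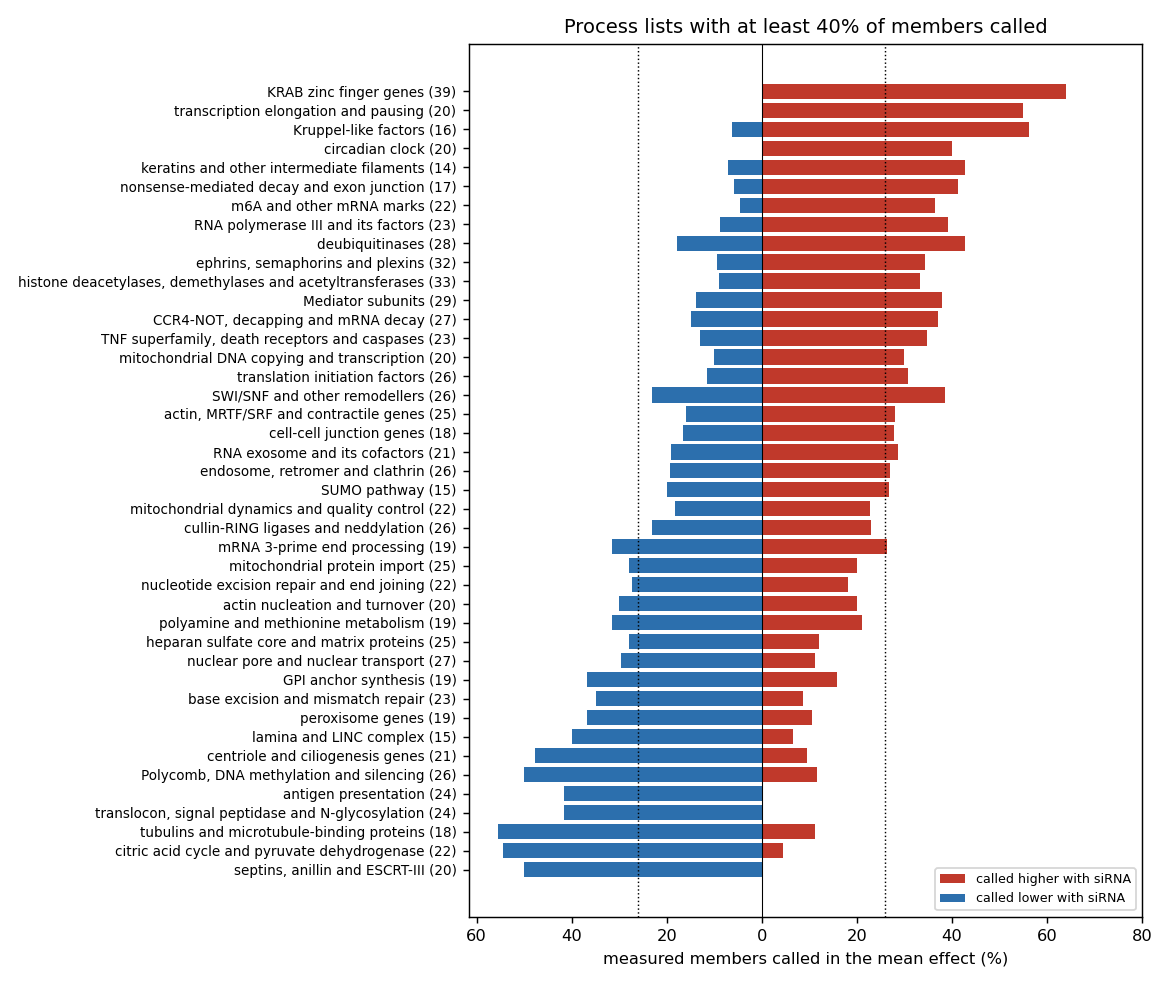
Bars give the share of measured members (%, number measured in parentheses) called higher (red, right) or lower (blue, left) with siRNA in the mean effect, for 42 lists with at least 40% of members called. Dotted lines mark the 26.0% and 26.1% called higher and lower among named genes above background. Lists are ordered by the share higher minus the share lower, with KRAB zinc finger genes (25 of 39 higher) at the top. Septins, anillin and ESCRT-III (10 of 20 lower, 5 after median centring) tie at the bottom with the citric acid cycle list (12 of 22 lower, 1 higher).

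Most of the listed zinc finger genes with a KRAB domain rose in the mean effect. Proteins of this family bind DNA through zinc finger arrays and recruit the repressor TRIM28, and many silence transposable elements. Of 39 measured members 25 rose and 0 fell in the mean effect, against 11.8% and 11.2% of all named genes. In both lines 12 rose, against 3.96% of all named genes. Of these, 11 rose by a similar size, against 3.36% of all named genes and 9.12% of those above background. Of the 26 members above background 20 rose, against 26.0% of all named genes above background. The median mean effect was 0.35, with 0.42 in Hep3B and 0.17 in Huh7, and the count of members that rose ran from 21 to 26 over the 22 alternatives run for the lists, with 24 when Huh7 control array 1 was left out. Many members are close copies of each other, and an array row can pick up more than 1 of them.

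ZNF93, which binds L1 elements, stood at 10.09, 10.30 and 10.26 with siRNA against 9.22, 9.29 and 9.22 with control RNA in Hep3B, and at 11.90, 11.68 and 11.98 against 10.38, 10.49 and 10.40 in Huh7. ZNF267 stood at 8.29, 8.51 and 8.45 against 7.20, 7.24 and 7.23 in Hep3B and at 8.33, 8.25 and 8.09 against 7.20, 7.17 and 7.09 in Huh7. ZNF12 stood at 9.85, 9.93 and 9.87 against 8.91, 8.80 and 8.84 in Hep3B and at 8.56, 8.59 and 8.65 against 7.63, 7.66 and 7.73 in Huh7. The siRNA and control arrays of these 3 genes did not overlap in either line, and the mean effects were 1.20 ± 0.06 (adjusted p = 7.76e-07), 1.13 ± 0.06 (adjusted p = 6.55e-07) and 0.98 ± 0.05 (adjusted p = 4.21e-07). ZNF227 rose by 1.07 in Hep3B and 0.67 in Huh7.

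**Figure D5:**
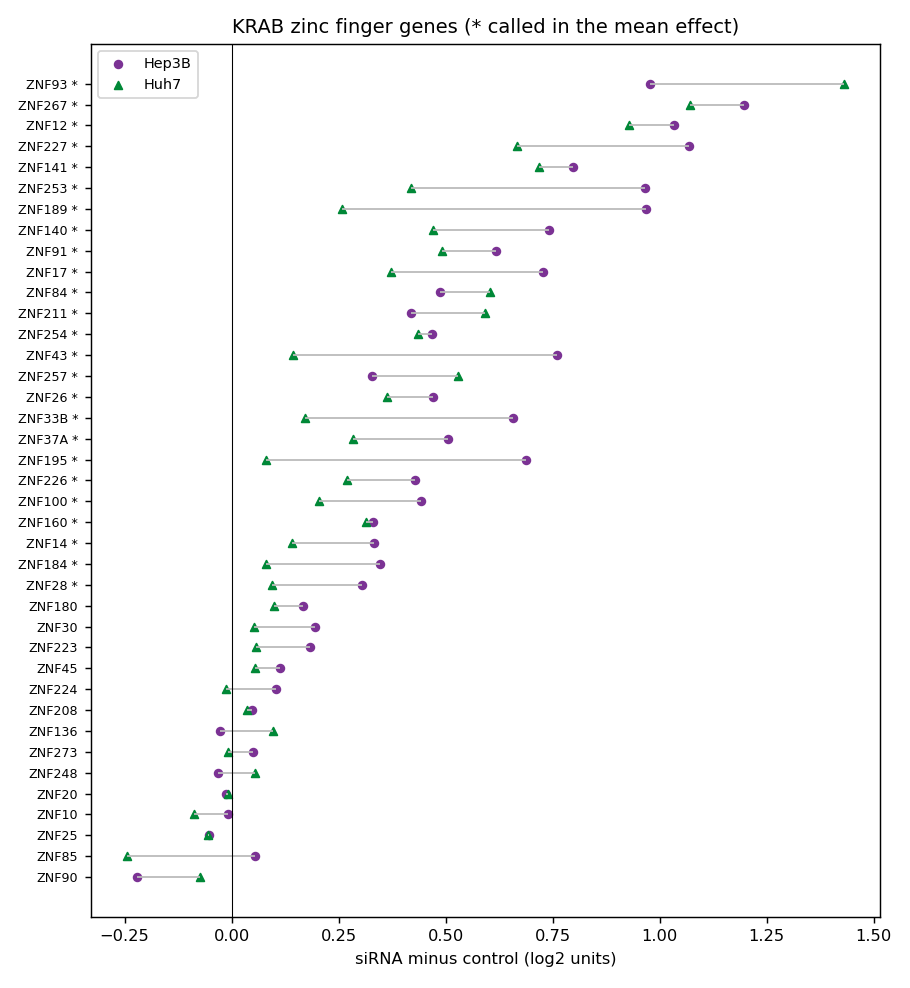
Each row is 1 of 39 KRAB zinc finger genes, ordered by the mean effect, with the siRNA-minus-control effect (log2 units, x axis) in Hep3B as a circle and in Huh7 as a triangle and a star for the 25 genes called in the mean effect. ZNF93, ZNF267 and ZNF12 have the largest mean effects, and no starred gene lies below 0 in either line.

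In several lists of the transcription machinery more genes rose than fell in the mean effect, with list medians near 0 in Huh7. Of 20 genes of elongation and pausing 11 rose and 0 fell, although 3 were called higher in both lines. The list median was 0.34 in Hep3B and -0.01 in Huh7. AFF4, the scaffold of the super elongation complex, was at 10.59, 10.54 and 10.62 with siRNA against 9.86, 9.83 and 9.80 with control RNA in Hep3B and at 11.20, 11.18 and 11.20 against 10.34, 10.30 and 10.25 in Huh7, a mean effect of 0.83 ± 0.04 (adjusted p = 5.98e-07). CCNT1 and CCNT2, cyclins of the elongation kinase P-TEFb, had mean effects of 0.61 and 0.46 but were not called in Huh7 alone, at 0.41 and 0.37, and the elongation factor SUPT6H rose by 0.43 and 0.45. In the Mediator complex 11 of 29 subunit genes rose and 4 fell (13 and 2 after median centring). The list median was 0.14 in Hep3B and 0.03 in Huh7. CDK8, its kinase, rose by 0.998 in Hep3B and 1.43 in Huh7 and MED13L, a subunit of the kinase module, by 0.64 and 0.66, while MED23 fell by a mean of 0.84 (effect -0.84) and unequally, -1.17 in Hep3B and -0.50 in Huh7. MED11, dim in the controls of both lines, rose by at least 2.15-fold and 1.40-fold.

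Of 23 RNA polymerase III genes 9 rose and 2 fell (11 and 1 after median centring), and 5 rose in both lines, with a list median of 0.21 in Hep3B and 0.02 in Huh7. POLR3C, a polymerase III subunit, read 10.99, 11.21 and 11.25 with siRNA against 10.05, 10.08 and 10.01 with control RNA in Hep3B and 10.46, 10.57 and 10.03 against 9.18, 9.43 and 9.24 in Huh7. BDP1, a subunit of its initiation factor TFIIIB, rose by 1.11 and 0.78, and the subunit gene POLR3D by 0.64 and 0.59. Of 26 chromatin remodellers 10 rose and 6 fell (11 and 4 after median centring). INO80 rose by 1.34 in Hep3B and 0.98 in Huh7 and ARID1A, a SWI/SNF subunit, by 0.90 and 0.58, while HELLS, a remodeller needed for DNA methylation, was at -0.88 and -0.62. Of 33 histone deacetylases, demethylases and acetyltransferases 11 rose and 3 fell, and beside KDM2A they included KDM6B, at 1.47 in Hep3B and 0.41 in Huh7, and HDAC8, at -0.50 and -0.54.

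Among transcription factor families, 9 of 16 Kruppel-like factors rose and 1 fell (11 and 0 after median centring), and 8 of 20 circadian clock genes rose and 0 fell. KLF5 read 7.46, 7.35 and 7.41 with siRNA against 6.52, 6.53 and 6.68 with control RNA in Hep3B and 10.40, 10.31 and 10.32 against 9.58, 9.44 and 9.33 in Huh7, a shared rise of 0.86 ± 0.06. KLF7 rose more, by 2.99 in Hep3B and 1.36 in Huh7, and KLF10 by 1.13 and 0.57. NR1D2, the clock repressor REV-ERB beta, read 9.59, 9.86 and 9.93 against 8.45, 8.60 and 8.55 in Hep3B and 8.13, 8.27 and 8.12 against 7.30, 7.21 and 7.33 in Huh7. BHLHE40, a repressor of clock-controlled genes, rose by 0.77 and 1.18, and the dim BHLHE41 by at least 1.24-fold and 1.53-fold. The siRNA and control arrays of KLF5 and NR1D2 did not overlap in either line.

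More genes of mRNA decay and of translation start rose than fell, in part at shares near the 26.0% that rose among all named genes above background. Among genes of nonsense-mediated decay and the exon junction 7 of 17 rose and 1 fell, and 5 of the 7 did so in both lines by a similar size. ETF1 and GSPT1, the 2 subunits of the translation release factor, rose by 0.97 and 0.92 in Hep3B and by 0.70 and 0.53 in Huh7. SMG1, the kinase of nonsense-mediated decay, was at 12.38, 12.60 and 12.59 with siRNA against 11.92, 11.92 and 11.95 with control RNA in Hep3B and at 11.85, 11.84 and 12.16 against 11.11, 10.91 and 11.06 in Huh7, and its partner SMG9 rose by 0.79 and 0.65. In the list of CCR4-NOT, decapping and decay factors 10 of 27 rose and 4 fell. The count that rose ran from 7 to 12 over the 22 alternatives, with 7 when Huh7 control array 1 was left out. The decapping proteins DCP1A and EDC3 rose by 0.92 and 0.62 on average, whereas the related decay factors ZFP36L1 and ZFP36L2 had mean effects of 0.81 and -0.60.

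Of 26 translation initiation factors, all above background, 8 rose and 3 fell (11 and 1 after median centring). The share that rose was near the 26.0% among all named genes above background. EIF2B2, an exchange factor subunit, was at 0.73 in Hep3B and 0.95 in Huh7, EIF5 at 0.81 and 0.65 and EIF4B at -0.55 and -0.43. Among 23 genes of translation elongation and tRNA modification 6 rose and 0 fell, but 1 of the 6 was called in both lines. Of the 16 members above background 6 rose, against the 26.0% among all named genes above background. Of 22 writers and readers of mRNA marks 8 rose and 1 fell, but 1 of the 8 was called in both lines, and YTHDC1, the nuclear reader of methylated adenosine, was at 0.99 and 0.46. The RNA exosome list had 6 of 21 higher and 4 lower (7 and 1 after median centring), with ZFC3H1 at 0.66 and 0.64 and the nuclease XRN2 at -0.44 and -0.40. Genes of mRNA 3-prime end processing had 5 of 19 higher and 6 lower, 5 and 3 after median centring, and 3 and 4 without Huh7 control array 1.

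Nuclear envelope, nuclear transport and gene silencing genes fell more often than they rose. Of 27 nuclear pore and transport genes, all above background, 8 fell and 3 rose, with 5 lower after median centring. The share that fell was near the 26.1% among all named genes above background, and the share that rose was below the 26.0% there. NUP107, a scaffold nucleoporin, read 9.42, 9.63 and 9.65 with siRNA against 10.62, 10.66 and 10.64 with control RNA in Hep3B and 10.41, 10.53 and 10.53 against 11.54, 11.39 and 11.58 in Huh7, a mean effect of -1.04 ± 0.06 (adjusted p = 9.78e-07). The membrane nucleoporin NUP210 fell by 0.85 (effect -0.85), and the import receptors went apart, KPNA2 at -1.09 and KPNB1, importin beta, at 0.74. In the lamina list 6 of 15 fell and 1 rose (5 and 2 after median centring), among them LMNB1 (lamin B1) at -0.63 in Hep3B and -1.08 in Huh7, the lamin B receptor LBR at -0.50 and -0.80 and SYNE2, which ties the nucleus to the cytoskeleton, at -0.56 and -0.49.

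Of 26 genes of Polycomb, DNA methylation and silencing 13 fell and 3 rose, with a median of -0.21, while 8 fell and 5 rose after median centring. RBBP7, a histone-binding subunit of Polycomb and deacetylase complexes, read 7.69, 7.37 and 7.35 with siRNA against 8.01, 7.92 and 7.96 with control RNA in Hep3B and 8.69, 8.77 and 8.77 against 9.84, 9.60 and 9.57 in Huh7. JARID2, a cofactor of Polycomb repressive complexes, was at -0.40 and -0.44, and DNMT1, the maintenance DNA methyltransferase, at -0.25 and -0.57. Of 23 base excision and mismatch repair genes 8 fell and 2 rose, led by the glycosylase NEIL3 at -1.36 and -0.69, the nuclease EXO1 at -0.77 and -0.66 and PARP1 at -0.63 and -0.54, while the thymine glycosylase TDG rose by 0.59 and 0.44. Nucleotide excision repair and end joining genes went both ways, 4 of 22 higher and 6 lower, and 4 higher and 1 lower after median centring and 4 and 3 without Huh7 control array 1. GTF2H1, a subunit of the repair and transcription factor TFIIH, rose by 1.16 in Hep3B and 1.12 in Huh7.

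Cytoskeletal lists went different ways. Contractile and SRF-linked actin genes had 7 of 25 higher and 4 lower, near the background for bright genes, and beside TPM4 they included MYL9, a myosin light chain, at -0.75 and -0.51, vinculin (VCL) at -0.39 and -0.53 and the myosin MYH9 at 0.63 and 0.45, not called in Huh7 alone. Actin nucleation genes had 4 of 20 higher and 6 lower, and 6 higher and 3 lower after median centring, with ARPC1A, an Arp2/3 subunit, at -0.73 and -0.85.

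Of 18 tubulins and microtubule-binding proteins 10 fell and 2 rose, with 4 lower after median centring, and TUBA1B was at -0.40 and -0.64 beside CKAP5. Of 21 centriole and ciliogenesis genes 10 fell and 2 rose, with 7 lower after median centring. PLK4, the kinase of centriole copying, was at -0.51 and -0.61, IFT80 at -0.89 and -0.44 and CEP290 at 0.46 and 0.91. Septin, anillin and ESCRT-III genes, which act at the end of cell division, had 10 of 20 lower and 0 higher, and 5 lower and 1 higher after median centring, led by SEPTIN6 (-0.89 and -0.70), ANLN (-0.80 and -0.65) and SEPTIN2 (-0.33 and -0.56). Of 14 keratins and other intermediate filament genes 6 rose and 1 fell, with vimentin (VIM) at 1.01 in Hep3B and 0.48 in Huh7 and KRT18 at 1.18 and 0.53. Cell junction genes had 5 of 18 higher and 3 lower (5 and 1 after median centring), with PKP2, a desmosome plaque protein, at 10.02, 9.94 and 10.04 with siRNA against 8.82, 8.78 and 8.89 with control RNA in Hep3B and at 12.34, 12.36 and 12.22 against 11.57, 11.68 and 11.53 in Huh7. Its effects of 1.17 and 0.72 lay within the similar-size limit although their difference was called (adjusted p = 0.0475).

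Genes of protein entry into the secretory pathway, antigen presentation genes and tetraspanins fell more often than they rose. In the list of the translocon, signal peptidase and N-glycosylation 10 of 24 fell and 0 rose, and 6 fell and 1 rose after median centring. RPN2, a subunit of the oligosaccharyltransferase, read 12.70, 12.71 and 12.58 with siRNA against 13.60, 13.64 and 13.60 with control RNA in Hep3B and 13.76, 13.50 and 14.05 against 14.37, 14.42 and 14.72 in Huh7, and its partner RPN1 was at -0.64 and -0.40, SSR1 of the translocon at -0.91 and -0.55 and the glucosyltransferase ALG8 at -0.49 and -0.53. Of 24 antigen presentation genes 10 fell and 0 rose (6 and 1 after median centring), although 7 of the 24 lay above background. They included the peptide loading proteins PDIA3 (-0.66 and -0.78) and CALR (-0.35 and -0.47) and HLA-C (-0.32 and -0.37), which has close copies among the other class I genes. Tetraspanins, small membrane scaffolds, had 7 of 21 lower and 0 higher (4 and 0 after median centring), with TSPAN3 at -0.96 and -0.73 and TSPAN6 at -0.70 and -0.65.

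Trafficking genes were mixed. COPI, COPII and Golgi genes had 3 of 24 higher and 6 lower (3 and 3 after median centring), with the Golgi proteins GOLGA2 at 0.65 and 0.64 and GBF1 at 0.63 and 0.52 and the coat subunit SEC23A at -0.61 and -0.37. Endosome, retromer and clathrin genes had 7 of 26 higher and 5 lower (8 and 2 after median centring). RAB5A, the GTPase of early endosomes, rose to 10.14, 10.07 and 10.04 in Hep3B siRNA cells against 9.24, 9.25 and 9.15 in controls, and to 10.38, 10.30 and 10.36 in Huh7 siRNA cells against 9.43, 9.31 and 9.24 in controls, whereas RAB11A of recycling endosomes was at -0.60 and -0.57. GPI anchor genes had 3 of 19 higher and 7 lower, heparan sulfate core and matrix genes 3 of 25 and 7, and peroxisome genes 2 of 19 and 7. V-ATPase and lysosomal membrane genes had 4 of 23 higher and 4 lower (5 and 3 after median centring). The 2 enzymes that begin ether lipid synthesis in peroxisomes went opposite ways in both lines, AGPS at 0.72 and 0.72 and GNPAT at -0.65 and -0.61, and the peroxisomal enzymes HSD17B4 (-0.64 and -0.60) and catalase (CAT, -0.38 and -0.60) fell.

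In the citric acid cycle list 12 of 22 genes fell and 1 rose, with the lowest median of all lists, -0.26, and 7 fell and 3 rose after median centring. IDH2, the mitochondrial isocitrate dehydrogenase that uses NADP, read 8.17, 8.11 and 7.9999 with siRNA against 9.20, 9.27 and 9.33 with control RNA in Hep3B and 8.65, 8.50 and 8.75 against 9.46, 9.38 and 9.56 in Huh7 (mean effect -1.001 ± 0.06, adjusted p = 1.69e-06). Its cytosolic counterpart IDH1 fell more in Huh7 (-1.07) than in Hep3B (-0.54), and MDH1, the cytosolic malate dehydrogenase, was at -0.55 and -0.66. Mitochondrial protein import genes had 5 of 25 higher and 7 lower (5 and 3 after median centring). TOMM22, a receptor of the outer membrane import pore, rose by 1.42 in Hep3B and 1.01 in Huh7, while the small pore subunit TOMM5 was at -0.60 and -0.44.

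Mitochondrial dynamics genes had 5 of 22 higher and 4 lower (7 and 3 after median centring), with the fission receptor MFF at -0.84 and -0.35 and the fusion protein MFN1 at 0.53 and 0.49, and mitochondrial DNA copying and transcription genes had 6 of 20 higher and 2 lower (6 and 1). Polyamine and methionine genes had 4 of 19 higher and 6 lower (4 and 3 after median centring). The polyamine catabolic enzymes SMOX and SAT1 rose by 0.61 and 0.55 on average, and AMD1, which makes the propylamine donor of polyamine synthesis, fell by 0.58 (effect -0.58). Pyrimidine genes had 1 of 16 higher and 5 lower (2 and 4 after median centring), with thymidylate synthase, TYMS, at -0.65 and -0.53. Purine synthesis genes had 1 of 18 higher and 2 lower, sphingolipid genes 1 of 20 and 4 (2 and 3 after median centring) and phosphoinositide genes 6 of 21 and 2 (7 and 1).

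Ubiquitin pathway genes moved in both directions. Of 28 deubiquitinases 12 rose and 5 fell, with USP36, a nucleolar deubiquitinase, at 7.71, 7.92 and 7.91 with siRNA against 6.97, 6.89 and 7.04 with control RNA in Hep3B and at 8.05, 7.996 and 7.94 against 7.04, 7.06 and 7.08 in Huh7. USP47 rose by 0.81 and 0.74 and TNFAIP3, the NF-kB brake also known as A20, by 0.92 and 0.47. Of 23 ubiquitin-conjugating enzymes 7 fell and 1 rose (3 and 2 after median centring), with UBE2T described above. Cullin-RING ligase genes had 6 of 26 higher and 6 lower. SKP2, which targets the inhibitor p27 for destruction, read 12.29, 12.34 and 12.35 with siRNA against 13.57, 13.57 and 13.67 with control RNA in Hep3B and 12.44, 12.42 and 12.08 against 13.28, 13.41 and 13.56 in Huh7. FBXO5, an inhibitor of the anaphase-promoting complex, was at -0.96 and -0.86, FBXW7, which targets MYC and cyclin E, at 0.62 and 0.71, and SUMO pathway genes had 4 of 15 higher and 3 lower.

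Among signalling and transport lists, TNF superfamily, death receptor and caspase genes had 8 of 23 higher and 3 lower (8 and 0 after median centring), with the receptors TNFRSF10D at 0.91 and 0.57 and TNFRSF12A at 0.67 and 0.73. Growth factor and nutrient receptors had 5 of 24 higher and 4 lower, with IGF1R at 0.54 and 0.73, FGFR3 at 0.70 and 0.53 and the transferrin receptor TFRC at -0.45 and -0.82. Kinase genes downstream of RAS had 2 of 19 higher and 5 lower (3 and 3 after median centring), with the stress kinases MAP2K6 at -0.67 and -1.17 and MAPK8 (JNK1) at -0.59 and -0.80, both called lower while MAP3K2 was called higher. Of 32 ephrin, semaphorin and plexin genes 11 rose and 3 fell (11 and 1 after median centring), although 1 of the 11 was called in both lines. Zinc and metal transporters had 4 of 22 higher and 4 lower (4 and 2 after median centring or without Huh7 control array 1), and SLC30A9 at -0.91 and -0.81 stood opposite SLC30A1. Lipid mediator genes had 3 of 29 higher and 3 lower, with LTA4H, the last enzyme of leukotriene B4 synthesis, at -0.85 and -0.60, and secreted factors linked to senescence had 5 of 25 higher and 1 lower, with VEGFA at 0.49 and 0.42.

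Annexins and S100 proteins had 4 of 21 higher and 2 lower, heparan and chondroitin sulfate synthesis genes 2 of 21 and 4 (3 and 1 after median centring, 2 and 2 without Huh7 control array 1), calcium handling genes 2 of 21 and 5, potassium and chloride channels 3 of 23 and 4 (3 and 2), telomere and shelterin genes 3 of 15 and 2 (3 and 0), and Notch and Hedgehog genes 3 of 26 and 0.

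The largest effects among the similar-size genes were in rows of U3 small nucleolar RNA, which guides early cleavage of ribosomal RNA. SNORD3A read 15.71, 16.31 and 16.38 with siRNA against 11.60, 12.04 and 11.91 with control RNA in Hep3B and 13.09, 12.37 and 13.22 against 8.002, 9.07 and 9.19 in Huh7. Its effects of 4.28 and 4.14 differed by -0.14, but with an interval of -1.15 to 0.86 a difference beyond the limit of 0.5 lies within the error, and the U3 copies cannot be told apart on these rows. Another U3 row, SNORD3C, did not meet the similar-size rule, with rises of at least 17.2-fold in Hep3B and 10.8-fold in Huh7. Small RNA rows that fell by a similar size in both lines were few and weak beside the U3 rows, with SNORD14D at -1.20 and -0.97 and SNORD75 at -0.58 and -0.54.

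For contrast, 207 genes were called in both lines with the same sign but were not of similar size, and the difference between the lines was called for 118 of them, for 7 of the 1553 similar-size genes and for 678 of all named genes (3.03%). The size of that difference split the first 2 sets, so their counts are fixed by the rule and nothing is read from them. ANKRD1, a YAP target, read 8.16, 8.36 and 8.43 with siRNA against 5.02, 5.20 and 4.97 with control RNA in Hep3B and 12.84, 12.95 and 13.06 against 8.91, 8.86 and 8.50 in Huh7, at least 7.04-fold in Hep3B and 18.3-fold in Huh7. RNU12 rose by at least 9.20-fold and 1.35-fold from control levels within background, and the rows RNU1-12P and RNVU1-2, identical on all arrays, by 5.06 and 2.69. C5 fell by more in Hep3B (-1.89) than in Huh7 (-1.36), a called difference of 0.53 (adjusted p = 0.0153). SLC6A14 fell by at least 4.20-fold in Hep3B and 1.55-fold in Huh7, where its siRNA level lay within background. HABP2 (-2.03 and -0.998), KIF23 (-1.74 and -1.07) and SNORD41 (-2.37 and -1.44) had larger Hep3B effects too, but their differences were not called (adjusted p = 0.0535, 0.0756 and 0.557).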

How the data were processed

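Gene expression was measured on 12 arrays, 3 for each of 4 groups, and the file deposited by the authors holds log2 values per array row, with the background correction and summary not given in the sources used here. The labels conflict on the platform, since they describe standard Affymetrix labelling while the submitters' processing notes name Agilent Feature Extraction 10.7.1.1, and the genome build is not given. Of 70523 rows, 67528 transcript clusters were kept. Array medians differed by 0.124, above a limit of 0.1 set for this step, so the values were quantile normalized. Symbols came from the platform annotation, which gave 1 symbol for 23781 probes and several for 1543 that were left unnamed, and 306 symbols were updated through RefSeq. The probe with the highest mean stood for a gene.

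limma 3.58.1 in R 4.3.3 fitted 1 mean per group with a trend of the spread on the mean, leaving 8 residual degrees of freedom. Contrasts were siRNA minus control in each line, their mean and the Huh7 minus Hep3B difference, with two-sided moderated tests adjusted by Benjamini-Hochberg over 66158 rows. The script was tested on simulated data. A row lay above background where its group mean exceeded 5.50, the highest mean of 23 background rows. Folds against a group within background were bounded with each dim array set to the higher of its level and that limit.

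The genes named were the 15 in each direction with the largest smaller-of-2 effect, some leading small RNA rows and the largest effects outside the similar-size rule. The 15 in each direction and the leading small RNA rows had to meet the similar-size rule. They also needed no overlap of siRNA and control arrays in either line, and a brighter group above background in each line. Some of the leading members of the process lists were named too, and these are not always the members with the largest effects. GLA, EBPL, ZNF594, LINC00261 and APOC3 stand for the edge of that rule. The results of 1 process list are not reported here. Members and lists were chosen with earlier results of these data known. No label says that replicate arrays are separate cultures. The p-values therefore rest on a spread between arrays that may be technical, and the number of arrays limits the precision.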

Additional observations from a re-analysis of the deposited data

Results flagged for a closer look

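The siRNA effect differed between the lines, by the limma test of the difference adjusted over all rows, for these named genes, each value being the Huh7 effect minus the Hep3B effect. For ANKRD1 the value was 0.94 (adjusted p = 0.0212), but its Hep3B control arrays lay within background, so its Hep3B effect is a lower bound and which line rose more is not settled. KLF7 (-1.63), KDM6B (-1.06), KRT18 (-0.65), ZFP36L1 (-0.64), VIM (-0.53) and PKP2 (-0.45) were higher with siRNA by more in Hep3B. The U12 row RNU12 (-2.80) and the U1 rows RNU1-12P and RNVU1-2 (-2.37), identical on all arrays, had the same order, although RNU12 had control levels within background in both lines, so that its value is not a measured difference. SLC6A14 had a value of 1.17, but its Huh7 siRNA level lay within background, which limits the fall measured there. MED23 (0.66) and C5 (0.53) fell by more in Hep3B, while IDH1 (-0.53) fell by more in Huh7. The adjusted p of these differences ran up to 0.0475.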

How the results depend on the processing

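The 1553 similar-size genes became 1426 with the values as deposited (1286 shared), 1244 after median centring (1130 shared) and 1473 after cyclic loess (1410 shared). The share that rose was 60.1%, 66.0% and 51.6% under these 3 settings, against 48.5% in the report. Demanding that the whole interval lie within the limit left 997 genes. Fitting only named rows, so that no other rows were tested, gave 6351 called rows against 9542, but raised the called named genes to 6351 against 5150 and the similar-size genes to 2251. Keeping only rows above the highest background mean or above the median of all rows gave 2140 and 1976 similar-size genes. Leaving out 1 array at a time gave 8068 to 9316 called rows, 4419 to 5013 called named genes, 1372 to 1676 genes called in both lines and 1185 to 1462 similar-size genes. Whether replicate numbers pair the arrays is not settled. Same-numbered deviations correlated between 0.098 and 0.184 in Hep3B, and at -0.234, -0.148 and 0.142 in Huh7. Over both lines 7 of 12 arrays were closest to their own number. With the replicate number as a block, 8051 rows, 4346 named genes, 1293 genes in both lines and 1127 similar-size genes were called. Of 6594 values of 287 genes under these alternatives, 6481 kept direction and call, 113 in 21 genes missed the threshold and 0 reversed. None of the 30 leading genes missed it. List counts of 3 or more calls moved by over 1.5 times without 1 array in 15 lists, given as higher and lower. Without Hep3B control array 2, tubulins gave 2 and 6, actin nucleation 2 and 4, endosome genes 4 and 4, mRNA marks 5 and 1, 3-prime end processing 3 and 4, excision repair 3 and 3, polyamine genes 4 and 3, translation initiation 6 and 1, zinc transporters 3 and 2 and heparan synthesis 2 and 1. The same or a like shift came in 1 or more of the mark, processing, repair, polyamine, initiation, zinc, heparan, tubulin and actin lists without Hep3B control arrays 1 or 3, Hep3B siRNA arrays 1, 2 or 3, Huh7 control arrays 1, 2 or 3 or Huh7 siRNA arrays 1 or 2. Phosphoinositide genes gave 3 and 2 without Hep3B control array 1 or 3 or siRNA array 2 or 3, and telomere genes 1 and 1 without Hep3B control array 1 or Huh7 control array 2 and 1 and 2 without Hep3B siRNA array 3. Without Huh7 siRNA array 2, SUMO genes gave 3 and 5 and purine genes 1 and 4, and without Hep3B siRNA array 1, Notch and Hedgehog genes gave 5 and 0. Levels near background limit the dim genes to bounds.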

Other observations

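Zinc finger genes beyond the KRAB list were counted after their values were seen. Of 533 named genes whose symbol is ZNF and a number, 188 were called higher and 9 lower in the mean effect, with a median of 0.12. Among all named genes 11.8% were higher and 11.2% lower, with a median of -0.01. Of the 235 above background in each line, 133 were higher and 8 lower, with a median of 0.26. Among all named genes above background 26.0% were higher and 26.1% lower, with a median of -0.02. By the similar-size rule 60 of the 533 rose and 2 fell, against 3.36% and 3.57% of all named genes. Of the 235 above background 51 rose and 2 fell by that rule, against 9.12% and 9.98% of all such genes. Many of these genes are close copies, so the rows are not independent.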
